A study of Mus musculus with 2 samples.

Results

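Megakaryocyte and platelet genes were measured in G1E-ER4, an immortalized mouse erythroid line. They were taken as 9 named genes, Tubb1, Itgb3, Itga2b, Gp1ba, Gp1bb, Gp9, Pf4, Ppbp and Vwf, and all 9 were found among the 43346 Ensembl genes of the deposited tables. The labels give strain C57BL/6J and male sex; the line lacks its own Gata1 and carries GATA1 in a form that works only when estradiol is bound. The series has 1 group of 2 libraries, numbered as biological replicates 1 and 2, and both cultures had been given 10 nM 17beta-estradiol for 24 h. Both libraries therefore share the missing chromosomal Gata1, the introduced factor and the treatment, and they stand for 1 cultured line, not for bone marrow. No untreated culture was analysed here, so the values are levels and ratios within the libraries, and no effect of estradiol or of GATA1 was tested. Depth was 62080996 expected counts in replicate 1 and 41051158 in replicate 2.

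Megakaryocytes are the large bone marrow cells that shed platelets, and they share a progenitor with red cells. GATA1 is used in both lineages, with partners of the ETS family such as FLI1 in megakaryocytes and with KLF1 in red cells. Itga2b and Itgb3 encode the subunits of the fibrinogen receptor, and Gp1ba, Gp1bb and Gp9 encode subunits of the GPIb-IX receptor for von Willebrand factor. Vwf encodes that ligand, Pf4 and Ppbp encode chemokines stored in alpha granules, and Tubb1 encodes the beta tubulin of the marginal band that gives the platelet its shape.

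Tubb1 was the highest of the 9 genes at a mean of 8.21 TPM (the authors' length-scaled share of the library), Itgb3, Itga2b and Gp1ba lay between 1 and 3 TPM, Pf4 was just under 1 TPM, and Gp9, Ppbp, Gp1bb and Vwf had 0 to 8 counts per library. At least 1 TPM in both libraries was reached by 4 of the 9 genes, and by 36.3% of the 21461 nuclear protein-coding genes. The median of the mean levels was 0.71 TPM over the 9 genes and 0.02 TPM over the nuclear protein-coding genes. At other thresholds the counts were 5 genes at 0.5 TPM (39.5% of nuclear protein-coding genes), 1 at 5 TPM (20.3%), 5 at 1 FPKM (41.2%), 4 at 1 TPM by the posterior mean (36.7%) and 5 at 1 TPM after rescaling over nuclear protein-coding genes (42.9%). The rescaling multiplied TPM by 7.09 in replicate 1 and by 6.95 in replicate 2, which put Tubb1 at 48.0 and 67.0. Each of the 9 genes had a read in at least 1 library, while 29.3% of nuclear protein-coding genes had 0 counts in both. Together the 9 genes held 5207 counts in replicate 1 and 4187 in replicate 2. In a bulk sample, fewer cells of a type and less RNA per cell cannot be told apart.

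For 4 receptor and granule genes, the promoter windows of the RefSeq tables are shown (build GRCm38.p6, 250 bases before the transcription start and 50 from it on). The windows belong to Gp1ba and Pf4 and to Gp9 and Ppbp, which had few counts. They are printed 5′ to 3′ on the strand of the gene, with GATA and ETS words in capitals. The Gp1ba window is chr11:70638872-70639171 on the plus strand and the Gp9 window is chr6:87777820-87778119 on the plus strand. The windows of the neighbouring granule genes are chr5:90772185-90772484 for Pf4 and chr5:90768268-90768567 for Ppbp, both on the plus strand.
Gp1ba: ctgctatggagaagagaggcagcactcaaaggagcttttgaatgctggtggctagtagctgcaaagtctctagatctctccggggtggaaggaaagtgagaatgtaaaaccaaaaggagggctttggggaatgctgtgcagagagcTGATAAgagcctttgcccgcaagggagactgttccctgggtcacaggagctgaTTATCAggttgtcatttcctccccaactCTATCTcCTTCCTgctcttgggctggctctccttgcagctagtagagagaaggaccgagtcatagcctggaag
Gp9: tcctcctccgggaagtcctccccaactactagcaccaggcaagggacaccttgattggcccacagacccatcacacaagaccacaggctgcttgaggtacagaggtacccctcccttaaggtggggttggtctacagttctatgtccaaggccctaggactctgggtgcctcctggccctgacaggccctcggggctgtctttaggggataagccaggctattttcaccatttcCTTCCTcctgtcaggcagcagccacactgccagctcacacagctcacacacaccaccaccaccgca
Pf4: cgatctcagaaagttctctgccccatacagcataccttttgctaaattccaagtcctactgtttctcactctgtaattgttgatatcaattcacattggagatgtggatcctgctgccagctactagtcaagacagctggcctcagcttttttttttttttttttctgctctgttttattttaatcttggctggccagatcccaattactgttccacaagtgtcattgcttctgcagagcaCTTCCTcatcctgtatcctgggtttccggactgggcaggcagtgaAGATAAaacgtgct
Ppbp: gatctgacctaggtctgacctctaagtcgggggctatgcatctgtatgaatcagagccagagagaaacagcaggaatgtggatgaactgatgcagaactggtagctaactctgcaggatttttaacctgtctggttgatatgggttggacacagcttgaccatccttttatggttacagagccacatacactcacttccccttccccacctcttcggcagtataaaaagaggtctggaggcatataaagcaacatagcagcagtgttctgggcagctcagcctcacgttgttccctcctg

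The GATA words searched were AGATAA as well as AGATAG, and with another first base TGATAA as well as TGATAG. The ETS words were AGGAAG as well as CGGAAG, and every word was searched on both strands. A table entry existed for 7 of the 9 genes; Itgb3 and Vwf had none. A GATA word was found in 3 of the 7 windows (Gp1ba, Gp1bb and Pf4), and in 29.8% of the 32851 windows of all genes. An ETS word was found in 6 of the 7, all but that of Ppbp, and in 46.5% of all windows. Gp1ba had 3 GATA words, whose first bases lie at -104, -51 and -23 from the transcription start, and an ETS word at -16. Gp9, a gene with 3 and 8 counts, also had an ETS word at -16 and no GATA word. Pf4 had an ETS word at -9 and a GATA word at 36. Gp1bb, with 0 and 2 counts, held 1 GATA word and 2 ETS words, and Tubb1 and Itga2b held ETS words alone. These matches describe letters in a short window, and binding was not measured in these libraries.

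**Figure D1:**
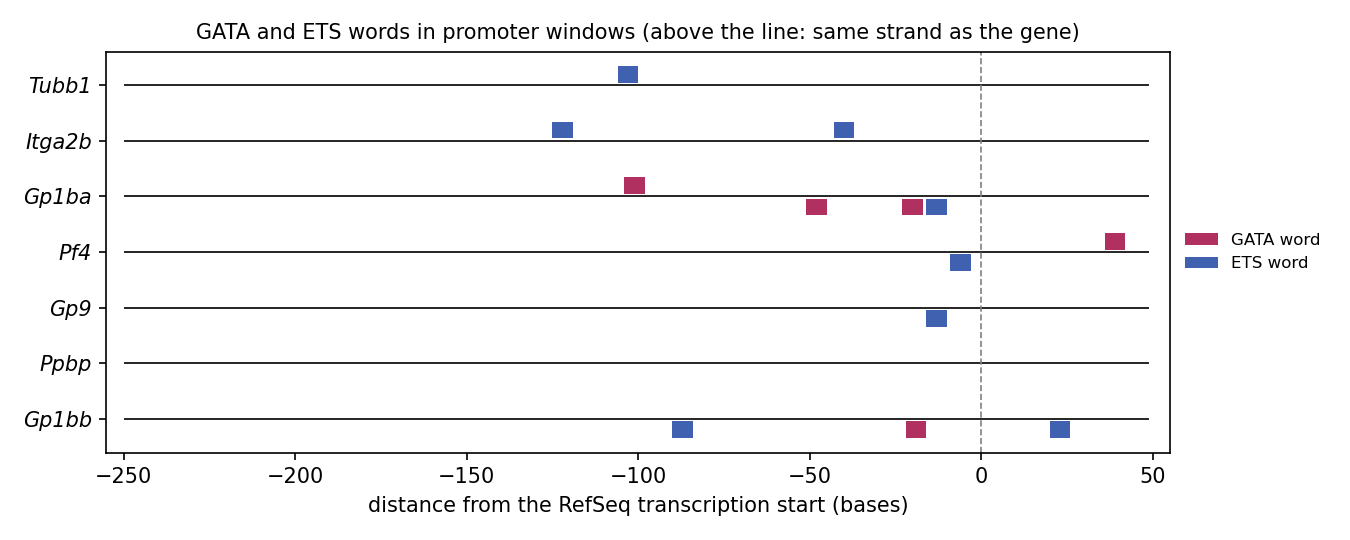
Positions of GATA words (red) and ETS words (blue) in the promoter windows of 7 genes, ordered by mean TPM from top to bottom; the horizontal axis is the distance from the RefSeq transcription start in bases. Gp1ba holds 3 GATA words, and the Ppbp window holds no word of either kind.

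Tubb1 (ENSMUSG00000016255.5; GRCm38 chromosome 2, 174450695 to 174457882, plus strand) was the most abundant of the 9 genes. Its level was 6.77 TPM in replicate 1, from 1671 counts, and 9.64 TPM in replicate 2, from 1627 counts, with a mean of 8.21 ± 2.03 TPM (SD, n = 2). The deposited credible bounds did not overlap between the libraries, at 6.41 to 7.06 TPM in replicate 1 and 9.09 to 10.0 TPM in replicate 2. Of the nuclear protein-coding genes, 3248 had a higher mean level. Tubb1 took 51.5% of the summed TPM of the 9 genes in replicate 1 and 60.7% in replicate 2, and all of its reads were given to its only annotated transcript.

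Beta tubulins pair with alpha tubulins in microtubules, and most cells use several of them. Among 8 beta tubulin genes, a family chosen after values had been seen, Tubb1 was the third, at 3.33% of their summed TPM in replicate 1 and 3.58% in replicate 2. Tubb4b and Tubb5, which are used in many cell types, led with 153 ± 36.7 and 59.4 ± 8.40 TPM (SD, n = 2). Tubb1 lay 18.8-fold under Tubb4b in replicate 1 and 18.6-fold under it in replicate 2. It lay 7.89-fold and 6.78-fold under Tubb5. The difference between replicates in Tubb1 was thus larger than that in its ratio to Tubb4b, whose log2 value was -4.22 ± 0.01 (SD, n = 2). Tubb2a stood next to Tubb1, with 7.30 and 8.57 TPM, and the order of these genes differed between the libraries; Tubb2a and its near-identical copy Tubb2b have fractional counts, so their split is uncertain. Tubb6 had 0 and 2 counts.

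The fibrinogen receptor was represented by both subunits. Itgb3 (ENSMUSG00000020689.4; chromosome 11, 104608000 to 104670476, plus strand) encodes the beta subunit and was at 1.88 TPM in replicate 1 and 2.10 TPM in replicate 2, from 2150 and 1659 counts. It had the most counts of the 9 genes, over an effective length of 5581 bases in replicate 1. Itga2b (ENSMUSG00000034664.9; chromosome 11, 102453297 to 102470122, minus strand) encodes the alpha subunit, the surface protein CD41, and was at 2.04 and 1.70 TPM from 411 and 338 counts. The levels of the subunits did not differ beyond their spread: the log2 ratio of Itga2b to Itgb3 was 0.12 in replicate 1 and -0.30 in replicate 2. The means were 1.87 ± 0.24 TPM for Itga2b and 1.99 ± 0.16 TPM for Itgb3 (SD, n = 2).

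The gene level of Itga2b rested largely on short transcripts with no annotated coding sequence. Itga2b-201, with 30 exons the only transcript annotated as coding, was at 0.26 TPM in replicate 1 and 0.55 TPM in replicate 2. It held 12.99% and 32.2% of the gene's TPM, on 176 and 250 counts, which were 42.7% and 74.1% of the gene's counts. The other 9 transcripts held 77.4 ± 13.6% of the TPM (SD, n = 2). The background was the 4882 protein-coding genes at 1 TPM in both libraries that have a transcript not annotated as protein-coding. Their median share of such transcripts was 17.5%, and 95.9% of these genes had a lower share than Itga2b. That share takes in every other class, nonsense-mediated decay among them, and transcripts with no class in GENCODE M21. The largest mean share, from 35.1% in replicate 1 and 28.7% in replicate 2, belonged to Itga2b-207, a transcript of 623 bases at the 3′ end of the gene (102453304 to 102456190), on 61.8 and 28.01 counts; in replicate 2 the share of Itga2b-201 was larger. Itga2b-205, of 427 bases at the 5′ end, held 26.6% and 27.8% on 25 and 14 counts. Because TPM divides by length, few reads on a short transcript weigh as much as many on a long one.

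Itga2b-207 can be told from the coding transcript by 190 bases of the 229-base intron in front of an exon that both share. They are printed from GENCODE M21 (chr11:102455981-102456190, minus strand, 5′ to 3′), with the start of the shared exon in capitals. The intron part ends in ag, the usual end of an intron. An exon of Itga2b-203, a transcript with 0 and 1 counts, covers the same 190 bases, so they do not mark Itga2b-207 alone. Reads from unspliced RNA over this intron were not separated.
Itga2b-207: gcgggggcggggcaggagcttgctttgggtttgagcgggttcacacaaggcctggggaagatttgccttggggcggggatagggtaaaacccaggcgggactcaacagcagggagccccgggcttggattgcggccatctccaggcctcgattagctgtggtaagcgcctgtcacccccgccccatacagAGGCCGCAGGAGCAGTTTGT

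The balance of the receptor subunits changed with this choice of transcripts. On coding transcripts alone, a comparison added after the data had been seen, Itga2b was 7.23-fold under Itgb3 in replicate 1 and 3.82-fold under it in replicate 2 (log2 -2.39 ± 0.65, SD, n = 2). On counts not divided by length it was 5.23-fold and 4.91-fold under Itgb3. The replicate difference of Itga2b also took its sign from the transcript split: log2 of replicate 2 over replicate 1 was -0.23 on TPM and 0.28 on counts scaled with TMM factors, and its effective length was 983 bases in replicate 1 and 1400 bases in replicate 2. The overlapping small RNA gene Gm23563, inside the Itga2b gene on the same strand, had 0 counts in both libraries. All reads of Itgb3, by contrast, went to its coding transcript of 5784 bases.

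**Figure D2:**
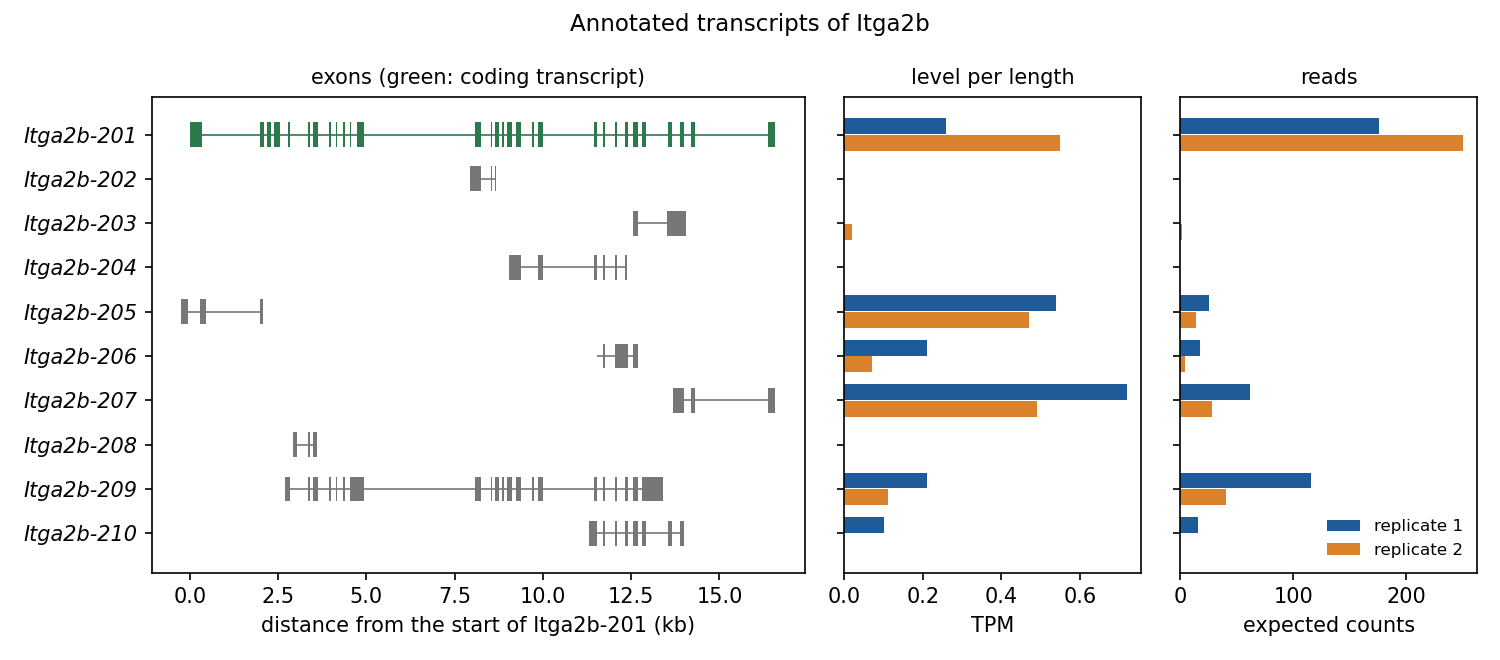
The 10 annotated transcripts of Itga2b, with exons drawn by distance in kb from the start of Itga2b-201 (left), TPM (middle) and expected counts (right) in each library. Itga2b-201 has the most counts in both libraries, while Itga2b-207, a short transcript at the 3′ end, has the highest TPM in replicate 1.

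The product of Itgb3 has another partner, the alpha subunit of the vitronectin receptor. Itgav encodes that subunit, and its gene level was above that of Itga2b by 1.98-fold in replicate 1 and 2.24-fold in replicate 2. On coding transcripts alone the mean log2 ratio of Itga2b to Itgav was -3.21, against -1.07 on all transcripts. Among 18 integrin alpha genes, listed after values had been seen, 3 reached 1 TPM in both libraries: Itga4 at 11.4 ± 2.34 TPM, Itgav at 3.92 ± 0.16 TPM and Itga2b (SD, n = 2). Among 8 beta genes Itgb3 was the fourth, after Itgb1 at 42.9 ± 2.61 TPM, Itgb7 at 11.1 ± 0.83 TPM and Itgb2 at 10.5 ± 0.18 TPM. Itgb3 held 2.78% and 3.22% of the summed beta subunit TPM, and the log2 ratio of Itgb3 to Itgb1 was -4.43 ± 0.20 (SD, n = 2). The megakaryocyte collagen receptor subunit Itga2 had 0 counts in both libraries.

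Of the receptor for von Willebrand factor, the ligand-binding chain was read and its small partner chains were nearly absent. Gp1ba (ENSMUSG00000050675.7; chromosome 11, 70639122 to 70642036, plus strand) was at 1.84 TPM in replicate 1 and 1.44 TPM in replicate 2, from 925 and 503 counts, with a mean of 1.64 ± 0.28 TPM (SD, n = 2). Gp1bb (ENSMUSG00000050761.3; chromosome 16, 18620317 to 18622403, minus strand), the beta chain linked to it by disulfide bonds, had 0 and 2 counts. A count of 0 in replicate 1 allows up to 0.0331 TPM, taken as 3 counts on the transcript read in replicate 2, and the 2 counts stand for 0.03 TPM. Gp9 (ENSMUSG00000030054.3; chromosome 6, 87778072 to 87779768, plus strand), the small chain that holds the complex together, had 3 and 8 counts, at 0.02 and 0.10 TPM.

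Gp1ba stood at least 55.8-fold above Gp1bb in replicate 1, with Gp1bb taken at 3 counts and no counting error of Gp1ba, and 43.7-fold above it in replicate 2, with a 95% counting interval of 12.04 to 362 for the 2 counts (exact Clopper-Pearson). It stood 76.7-fold above Gp9 in replicate 1, with an interval of 26.2 to 372, and 15.2-fold above it in replicate 2, with an interval of 7.65 to 35.4. The intervals cover counting error only, because these reads carry no molecular identifiers. No ratio of Gp1bb to Gp9 is given, because both had 3 or fewer counts in replicate 1. Gp5, which encodes the fourth chain of the complex on platelets, lay under Gp1ba and above Gp1bb and Gp9, at 0.42 and 0.57 TPM from 170 and 161 counts. Gp1ba reads were split between its coding transcripts Gp1ba-201, at 77.4 ± 5.80% of TPM, and Gp1ba-202, at 22.6 ± 5.80% (SD, n = 2). Gp1bb overlaps Sept5 on the same strand, where reads could be shared, and Sept5 had 0 counts in both libraries.

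Vwf (ENSMUSG00000001930.13; chromosome 6, 125546774 to 125686679, plus strand), the ligand of that receptor, had 0 counts in replicate 1 and 1 in replicate 2, and that read was assigned to Vwf-207, a transcript annotated as a retained intron. Its deposited TPM is 0 in both libraries; the posterior mean TPM in the tables is 0.08 in replicate 1 and 0.13 in replicate 2, for the same 0 and 1 counts. Vwf is also known as an endothelial gene. Of 9 endothelial markers 1 reached 1 TPM in both libraries, Egfl7 at 10.0 and 11.1 TPM; Cdh5, which encodes the cadherin of endothelial junctions, had 0 counts in both, and the summed TPM of the list, which shares Pecam1 with the adhesion receptors below, was 10.1 in replicate 1 and 11.2 in replicate 2.

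The granule chemokines are neighbours on chromosome 5 and were read at different levels. Pf4 (ENSMUSG00000029373.6; 90772435 to 90773383, plus strand), which encodes platelet factor 4, was at 0.60 TPM in replicate 1 and 0.82 TPM in replicate 2, from 47 and 43 counts, with a mean of 0.71 ± 0.16 TPM (SD, n = 2). Its credible bounds, 0.44 to 0.78 and 0.60 to 1.09 TPM, overlapped. Ppbp (ENSMUSG00000029372.6; 90768518 to 90770063, plus strand), which encodes the precursor of beta-thromboglobulin, lies 2372 bases away and had 0 and 6 counts. Its count of 0 in replicate 1 allows up to 0.0167 TPM, and the level in replicate 2 was 0.05 TPM. With Ppbp taken at 3 counts and no counting error of Pf4, Pf4 stood 35.9-fold above it in replicate 1. With the Ppbp count left at 0, the 95% counting interval had a lower limit of 28.03-fold and no upper limit. That limit does not apply to the ratio at 3 counts. In replicate 2 Pf4 stood 16.8-fold above Ppbp, with a counting interval of 7.13 to 48.4. The other chemokine genes of the cluster, Cxcl5, Cxcl3, Cxcl15, Cxcl1 and Cxcl2, had 0 to 6 counts per library. Pf4 was thus the only gene of the 7 in this cluster with more than 6 counts in a library.

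In the order of mean levels, Tubb1 exceeded Itgb3 in both libraries (log2 ratio 2.03 ± 0.25, SD, n = 2), Itgb3 and Itga2b did not differ beyond their spread, and Itga2b exceeded Gp1ba by a log2 ratio of 0.19 ± 0.06, with credible bounds that overlapped in both libraries. On coding transcripts alone Itga2b lay under Gp1ba, at 0.41 TPM on average. Gp1ba exceeded Pf4 (1.22 ± 0.58) and Pf4 exceeded Gp9 (3.88 ± 1.07). For Gp9, Ppbp, Gp1bb and Vwf the counts were too few to set an order.

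**Figure D3:**
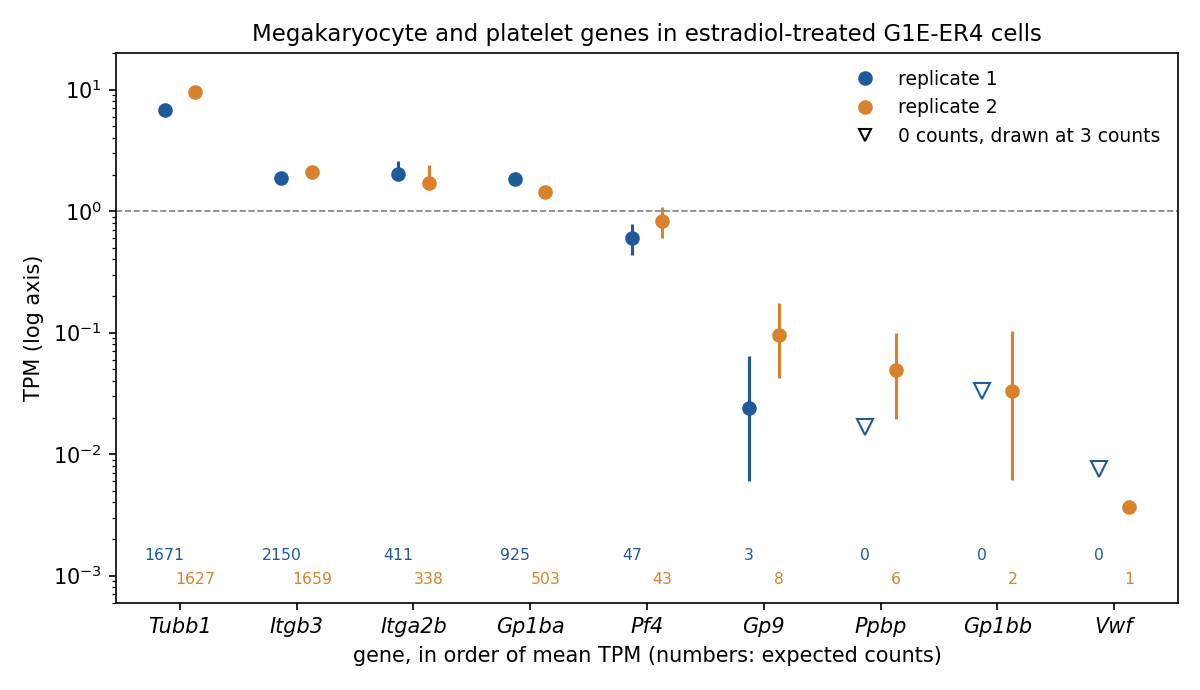
TPM of the 9 genes on a log axis in replicate 1 (blue) and replicate 2 (orange), with vertical lines for the deposited credible bounds (not drawn for Vwf) and expected counts printed at the bottom. Points were recomputed from counts and effective length; open triangles mark 0 counts and stand at the level of 3 counts. Tubb1 is the highest at 6.77 and 9.64 TPM, and Gp9, Ppbp, Gp1bb and Vwf have 8 or fewer counts in each library.

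**Figure D4:**
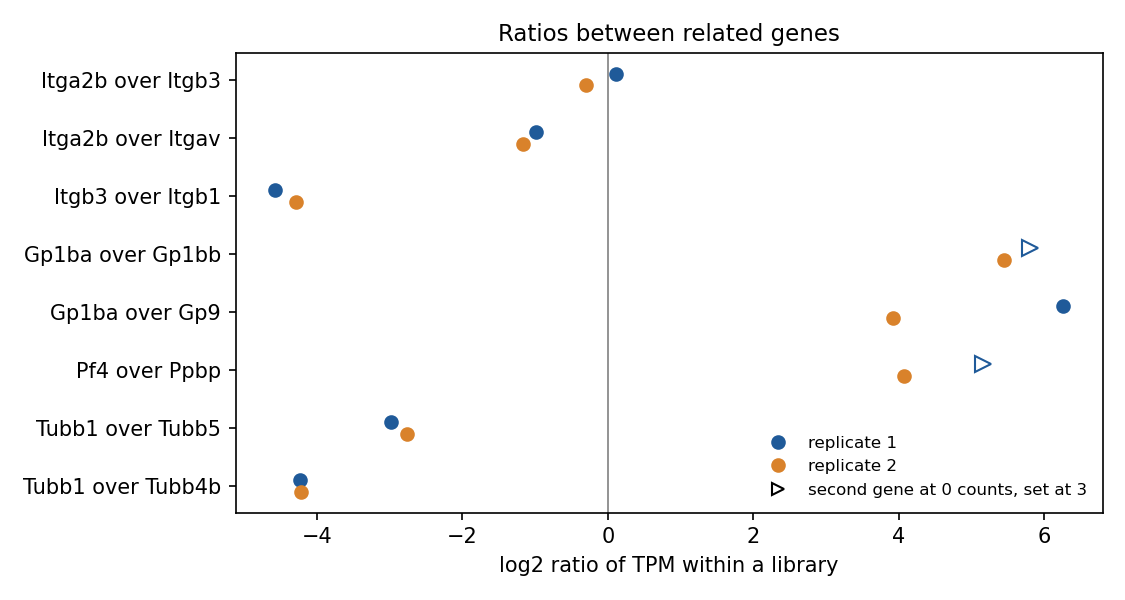
The log2 ratio of TPM within each library for 8 pairs of related genes, with replicate 1 in blue and replicate 2 in orange; open triangles stand at the ratio to 3 counts of the second gene, where it had 0. The ratio of Itga2b to Itgb3 lies on both sides of 0, and the other 7 pairs have the same sign in both libraries.

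With 1 group of 2 libraries no test was made, and a pair was called where its log2 ratio had the same sign in both libraries and a mean larger than its SD. On that rule 7 of the 8 pairs with a ratio were called, and Itga2b over Itgb3 was not. The share of all gene pairs that would pass the rule was not worked out, so the number called is not a result about these genes. For Gp1ba over Gp1bb and Pf4 over Ppbp the replicate 1 ratio was set at 3 counts, so their SD is not a measured spread. None of the 5 genes with a mean of at least 20 counts differed 2-fold or more between replicates, a rule that 4.37% of nuclear protein-coding genes passed. Of the 4 genes with a mean of at least 100 counts none did either, against 2.28% of nuclear protein-coding genes. Tubb1 had the largest such difference of the 5, with a centred log2 of 0.54 for replicate 2 over replicate 1, and Gp1ba was on the other side at -0.32. The 4 genes with 20 or fewer counts in all, Gp9, Ppbp, Gp1bb and Vwf, each had more counts in replicate 2, although it was the shallower library. Among 5005 nuclear protein-coding genes with 1 to 20 counts, 70.8% had more counts in replicate 2. Of 9 macrophage and myeloid markers, 6 also had more counts there, and 2, Cd68 and Csf1r, had more in replicate 1. C1qa had 0 counts in both, and the summed TPM of the list was 0.52 in replicate 1 and 1.73 in replicate 2. Of the endothelial markers 3 had more counts in replicate 2 and 5 in replicate 1, and of the mast cell markers 3 and 2. The myeloid tally cannot be set against the 70.8%, because the list holds genes with more than 20 counts. These were Mpo, with 16 and 62 counts in replicates 1 and 2, Cd68, with 40 and 26, and Csf1r, with 38 and 12. The part of macrophage and myeloid cells in the low counts was not tested.

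Of 90 companion genes in 7 groups, 41 reached 1 TPM in both libraries, against 36.3% of all nuclear protein-coding genes, and 10 had 0 counts in both; their median level was 0.39 TPM. The share at 1 TPM was uneven over the groups, from 13 of 16 transcription factors to 1 of 13 adhesion receptors. The transcription factors were led by Gata1 at 60.0 and 73.2 TPM, Nfe2, which is needed for platelet release, at 48.6 and 51.7 TPM, and Zfpm1, which encodes the GATA1 cofactor FOG1, at 43.3 and 43.5 TPM. The Gata1 reads of the introduced form and of the chromosomal locus are not separated in the tables. Mecom had 0 counts in replicate 1 and 7 in replicate 2.

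Of 15 genes of integrin activation and signalling, 11 reached 1 TPM. Fermt3, which encodes kindlin-3, an activator of integrins in blood cells, was at 122 and 139 TPM, the integrin-linked kinase Ilk at 37.4 and 38.03 TPM, and the small GTPase Rap1a at 31.9 and 27.02 TPM. The kinase Syk and the phospholipase Plcg2, which act under the collagen receptors, had 0 counts in replicate 1 and 12 and 11 in replicate 2. Of 13 cytoskeleton genes 7 reached 1 TPM in both libraries, led by Tubb4b, by Tuba4a, an alpha tubulin of platelets, at 122 and 132 TPM, and by Tubb5. The actin crosslinker Actn1 had 2 and 3 counts.

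Of 13 adhesion receptors only Itgb1 reached 1 TPM in both libraries. Gp5 came next and then Treml1, a receptor of alpha granule membranes, at 0.09 and 0.05 TPM. The collagen receptor Gp6 had 0 counts in both libraries, as did Jam3, and Clec1b, which encodes the podoplanin receptor CLEC-2, had 1 count in each. Of 10 receptors for soluble agonists 3 reached 1 TPM: the ATP receptor P2rx1 at 10.0 and 10.6 TPM, the ADP receptor P2ry1 at 4.19 and 4.35 TPM, and the adrenergic receptor Adra2a at 1.29 and 1.43 TPM. The thromboxane receptor Tbxa2r had 0 counts in both libraries, and Ptger3 had 1 count in each.

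Of 18 genes of granule content and assembly 5 reached 1 TPM in both libraries. The proteoglycan core Srgn was at 28.5 and 20.97 TPM, Vipas39 at 5.55 and 5.33 TPM and the growth factor gene Tgfb1 at 4.80 and 4.91 TPM. Vipas39, Vps33b at 4.88 and 4.63 TPM and Nbeal2 at 1.37 and 1.32 TPM are genes of alpha granule formation. Thbs1, which encodes thrombospondin-1, an abundant granule protein, had 0 and 4 counts, and Slc35d3 had 0 counts in both. Of 5 eicosanoid genes only Gpx1, a glutathione peroxidase of many cells, reached 1 TPM, at 263 and 285 TPM; the thromboxane synthase gene Tbxas1 was at 0.12 and 0.22 TPM, Ptgs1 at 0.07 TPM in each library, and Pla2g4a and Alox12 at 0.07 TPM or less. All 8 erythroid markers reached 1 TPM in both libraries, with a summed TPM of 1580 in replicate 1 and 2334 in replicate 2. Among mast cell markers Hdc alone reached it, and Mcpt8 had 0 counts.

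**Figure D5:**
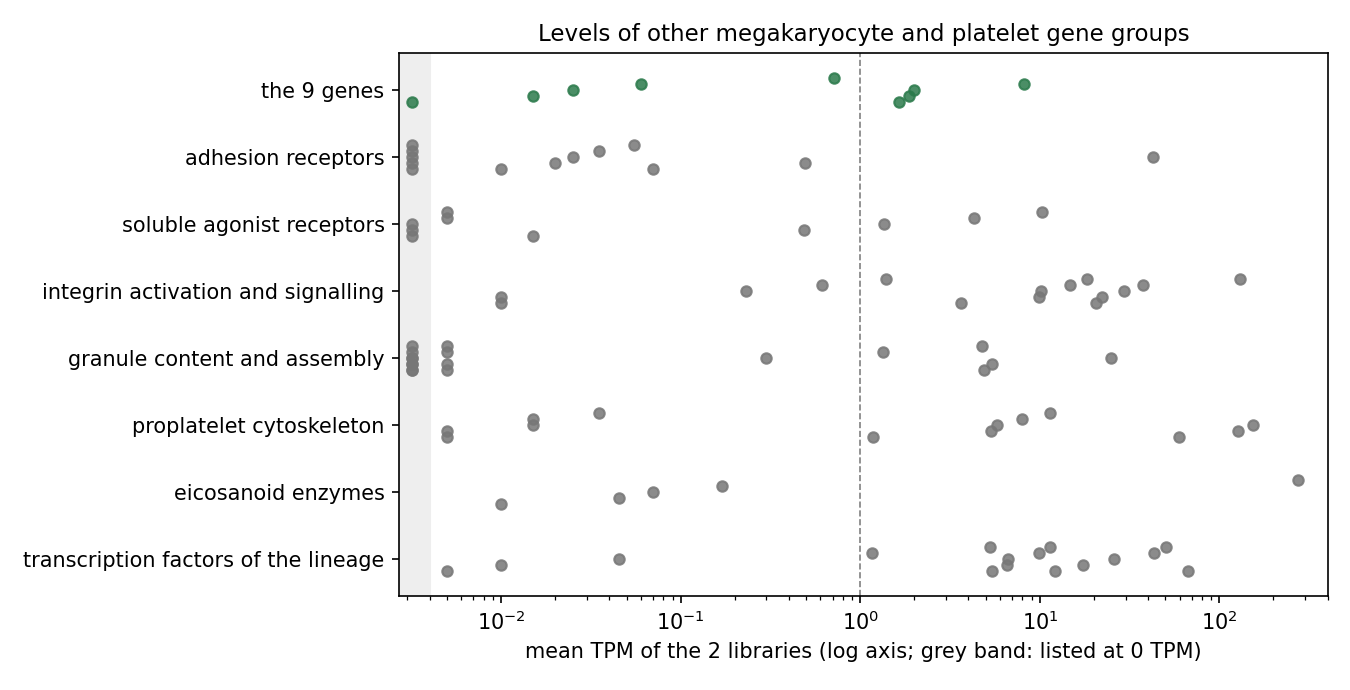
Mean TPM of the 2 libraries on a log axis for the 9 genes (green) and for 7 groups of companion genes (grey), 1 point per gene; the grey band holds genes listed at 0 TPM and the dashed line marks 1 TPM. Of the transcription factors 13 of 16 reach 1 TPM in both libraries, and of the adhesion receptors 1 of 13.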

How the data were processed

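RNA depleted of ribosomal RNA was made into libraries from 100 ng with the ScriptSeq kit, per the labels, over a size range of 200 to 1000. For each library the authors deposited a gene table and a transcript table on assembly mm10 and annotation GENCODE M4 (per their accompanying text lists). Expected counts, TPM and FPKM are the authors' values, per the file headers. The isoform percent of each transcript is likewise the authors' value, per the file headers. The credible bounds of TPM are also deposited, and their level, the program, the aligner and the use of strand are not given in the sources used here.

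Gene symbols, transcript types and coordinates came from GENCODE M21 on the same assembly, matched by identifier after the version suffix was dropped, which found 42462 of the 43346 Ensembl genes. The 9 genes, the companion lists, the pairs and the level rule were chosen with earlier results of these data known. The rule for named genes takes the 9 genes, both genes of each pair and, of each companion list, the 3 with the highest and up to 2 with the lowest mean TPM; other genes were named after their values were seen. Ratios used TPM recomputed from count and effective length, with a count of 0 set at 3 counts. TMM factors came from edgeR 4.0.16 and size factors from DESeq2 1.42.0 in R 4.3.3; other steps used Python 3.11.15. Protein sequences were not used here, and some genes of the lists are not reported by name. The labels number the libraries as biological replicates and say no more of their cultures, so the SD may be partly technical.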

Additional observations from a re-analysis of the deposited data

How the results depend on the processing

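The number of the 9 genes at or above the level threshold was 4, and 1 at 5 TPM. It was 5 at 0.5 TPM, at 1 FPKM and after TPM had been rescaled over nuclear protein-coding genes, where Pf4 joined, and 3 on coding transcripts alone (chosen after seeing the data), where Itga2b dropped out. It was 4 without either replicate. The 41 companion genes ranged from 33 at 5 TPM to 47 after rescaling, and were 42 and 41 without replicate 1 and without replicate 2. The 7 called pairs were 8 on counts not divided by length and 6 on coding transcripts alone. Both of these settings called Itga2b over Itgb3, with Itga2b the lower, which the main setting did not call. The called pairs were 5 on FPKM or TPM as deposited, where the pairs with a count of 0 have no value. No pair called in the main setting changed sign. The number of genes with a replicate difference of 2-fold or more was 0, with TMM factors and size factors too, and 1 when every gene with reads in both libraries was taken, namely Gp9, a rule that 12.2% of such protein-coding genes passed. The share of Itga2b-207 was 31.9% of TPM and 11.7% of expected counts, and 28.7% to 35.1% with a replicate left out. Depth limits Gp9, Ppbp, Gp1bb and Vwf, where a single read is worth 0.00164 to 0.0165 TPM. No paired analysis was possible because there is 1 group.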

Other observations

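The genes next to the 9 loci were also read at very different levels. Tubb1 lies between Ctsz, at 36.8 and 35.0 TPM in replicates 1 and 2, and Atp5e, at 6.00 and 6.24 TPM. Gp1ba has Slc25a11, a mitochondrial carrier gene, 2160 bases beyond its 3′ end on the opposite strand, at 38.5 and 43.5 TPM, and Chrne on its other side with 2 and 0 counts. Itga2b is flanked by Gpatch8 at 6.76 and 5.90 TPM and by Fam171a2 with 3 and 1 counts. Itgb3 lies between genes with 0 to 5 counts, Myl4 and Gm11639. Gp9, with 3 and 8 counts, has Rab43 at 8.70 and 7.74 TPM 9085 bases away. The nearest protein-coding genes that do not overlap Gp1bb, Tbx1 and Cldn5, had 0 counts, as had the overlapping Sept5. The neighbours of Vwf, Cd9 and Ano2, had 0 counts in replicate 1 and 3 and 4 in replicate 2.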
